A study of Homo sapiens with 2 samples.

Results

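The 51 genes described here are interferon-stimulated genes, interferon regulatory factors (IRFs) and interferon receptor chains, taken by symbol from a gene count table of 46865 loci. All 51 symbols were found, each at 1 locus, and all 51 had a mean of at least 1 CPM (counts scaled to the size of each library) over both libraries. They fall into 39 antiviral effectors, 8 STAT and IRF factors and 4 receptor chains. RNA came from wild-type human induced pluripotent stem cells of line 1231A3, differentiated with cytokines and inhibitors over 30 days to give primitive macrophages, which resemble those of the embryo and serve here as a model of human microglia. One library, Control, came from these macrophages with no agonist in its own labels, and the other, PNU282987, from macrophages given that α7 nicotinic receptor agonist at 100 µM for 12 hours. In the PNU282987 library amyloid β, not the agonist, is named in the treatment field, the same protocol text is attached to both libraries, and a vehicle is not stated. Each group had 1 library of 1 line, so nothing below could be checked against replicates. All intervals are at 95% and cover counting error only, without any variation between cultures.

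Interferons signal through paired receptor chains and the kinases JAK1, TYK2 and JAK2. Type I interferons bind IFNAR1 and IFNAR2 and lead to a complex with STAT2 and IRF9 that binds the interferon-stimulated response element (ISRE), whereas interferon gamma binds IFNGR1 and IFNGR2 and acts at gamma-activated sequences (GAS). The genes switched on encode antiviral proteins as well as sensors and factors that feed back on the pathway, and macrophages and microglia keep many of them expressed at a basal level without infection.

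The libraries held 39316475 reads (Control) and 36134391 reads (PNU282987), so that 3 reads, the limit that a count of 0 allows, equal 0.077 and 0.0823 CPM. The 9 macrophage markers were present in both libraries, with a summed level of 6078 and 5570 CPM. That sum hides unequal changes: CD14 (96.3 and 539 CPM) and MRC1 (331 and 553 CPM) were higher in PNU282987 and CD163 was near equality. The other 6 were lower, with log2 ratios of -0.52 for CD68, -0.42 for AIF1, -0.37 for SPI1, -0.29 for CSF1R, -0.26 for C1QA and -0.91 for C1QB, and their part in the values of the members was not tested. Markers of other cell types were not all absent: 5 stromal genes summed to 2614 and 2944 CPM, 4 granulocyte genes to 687 and 472 CPM, and 4 endothelial genes to 151 and 104 CPM, mostly PECAM1 (135 and 84.0 CPM). Of the pluripotency factors POU5F1 had 0 reads in both libraries, NANOG 3 and 0 and LIN28A 4 and 6. CLEC4C, which defines plasmacytoid dendritic cells, and 4 of the 5 lymphocyte markers were at 0 in both, while the remaining lymphocyte marker, NKG7, stood at 30.5 and 19.7 CPM. In bulk RNA, fewer cells of a type and less RNA per cell cannot be told apart.

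Letters like those of the elements through which this pathway acts could be read in the promoters of many members. RefSeq promoter windows (GRCh38.p14, 300 bases each, 250 before and 50 after a gene start) were at hand for 41 of the 51 members, in 59 windows. An ISRE-like match, here GAAA, any 2 bases and GAAA again, or on the other strand TTTC, any 2 bases and TTTC, lay in 29 windows, or 49.2%, against 3.57% of all 35116 promoter windows. The stricter form, the same letters followed by CT on the motif strand, lay in 20 windows, or 33.9%, against 0.273%. A GAS-like match, TTCNNNGAA, which reads the same on both strands, lay in 12 windows, or 20.3%, against 7.66%. A match is a description of these letters and not a binding site. The whole windows of IFIT1 and IRF9 are shown, since IFIT1 had the largest deficit of its family and IRF9 is the DNA-binding part of its complex with STAT2. In both, capitals mark the ISRE-like matches (IFIT1) or the GAS-like match (IRF9).
IFIT1 (chr10:89392373-89392672, plus strand): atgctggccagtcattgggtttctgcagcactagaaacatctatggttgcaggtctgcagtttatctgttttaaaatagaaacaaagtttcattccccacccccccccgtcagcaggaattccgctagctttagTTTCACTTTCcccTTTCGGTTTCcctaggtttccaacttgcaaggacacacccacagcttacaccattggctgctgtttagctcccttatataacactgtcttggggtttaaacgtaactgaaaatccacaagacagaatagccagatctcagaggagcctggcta
IRF9 (chr14:24161015-24161314, plus strand): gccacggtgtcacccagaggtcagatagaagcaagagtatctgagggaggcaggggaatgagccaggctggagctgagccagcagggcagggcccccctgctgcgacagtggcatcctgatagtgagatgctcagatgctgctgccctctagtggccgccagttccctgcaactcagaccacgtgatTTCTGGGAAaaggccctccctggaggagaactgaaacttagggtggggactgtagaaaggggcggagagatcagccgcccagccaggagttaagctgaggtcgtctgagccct

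Short stretches around one match are shown for members that stood lower (MX1, ISG15, IFIT3, IFITM3, PARP9) and members that did not (DTX3L, EIF2AK2, SAMD9), with the ISRE-like letters in capitals. This split changed without a trend of the ratio over the GC content and length of transcripts. DTX3L then stood at a log2 ratio of -0.22 (-0.28 to -0.15), EIF2AK2 at -0.11 (-0.18 to -0.04) and SAMD9 at 0.01. ISG15 has a pair of overlapping matches, and PARP9 and DTX3L share one match, read from opposite strands of the same 30 bases.
MX1 (chr21:41420559-41420588, plus strand): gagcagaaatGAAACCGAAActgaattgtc
ISG15 (chr1:1013380-1013409, plus strand): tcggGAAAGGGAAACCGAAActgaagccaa
IFIT3 (chr10:89327865-89327894, plus strand): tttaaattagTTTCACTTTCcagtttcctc
IFITM3 (chr11:320893-320922, minus strand): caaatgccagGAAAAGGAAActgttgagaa
PARP9 (chr3:122564322-122564351, minus strand): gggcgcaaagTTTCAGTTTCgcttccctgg
DTX3L (chr3:122564322-122564351, plus strand): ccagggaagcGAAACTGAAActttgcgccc
EIF2AK2 (chr2:37156967-37156996, minus strand): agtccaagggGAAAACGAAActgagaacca
SAMD9 (chr7:93118096-93118125, minus strand): tctgagaaatGAAACTGAAAccaaacctat

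GAS-like matches are shown for IRF1 and IFI35, each with no ISRE-like match in its windows, and each lower in the PNU282987 library. Capitals mark the GAS-like letters.
IRF1 (chr5:132490879-132490907, minus strand): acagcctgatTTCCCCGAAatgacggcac
IFI35 (chr17:43006752-43006780, plus strand): aggcagggatTTCACGGAAatgaaagtgg

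Most members had a lower level (CPM) in the PNU282987 library, by modest amounts. The ratio of PNU282987 to Control was under 1 for 44 of the 51 members (86.3%), whereas it was under 1 for 50.8% of the 14269 loci whose mean reached 1 CPM. The counting interval lay wholly below equality for 36 members (70.6%), against 33.6% of all loci, and wholly above it for 2 members, ADAR and SAMD9, against 33.5% of all loci. The median log2 ratio of the members was -0.42, a 1.34-fold lower level, and that of all loci was -0.0084. By a rule of at least 1.5-fold, an interval that excludes equality and a mean of at least 1 CPM, 10 members (19.6%) were lower, beside 8.66% of all loci. None was higher by that rule, beside 8.77% of all loci. At 2-fold only IRF4 and IRF9 were lower, 3.92% of the members beside 2.81% of all loci, a share near the background, and none was higher, beside 2.96%. The members took 0.385% of all reads in Control and 0.319% in PNU282987.

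**Figure D1:**
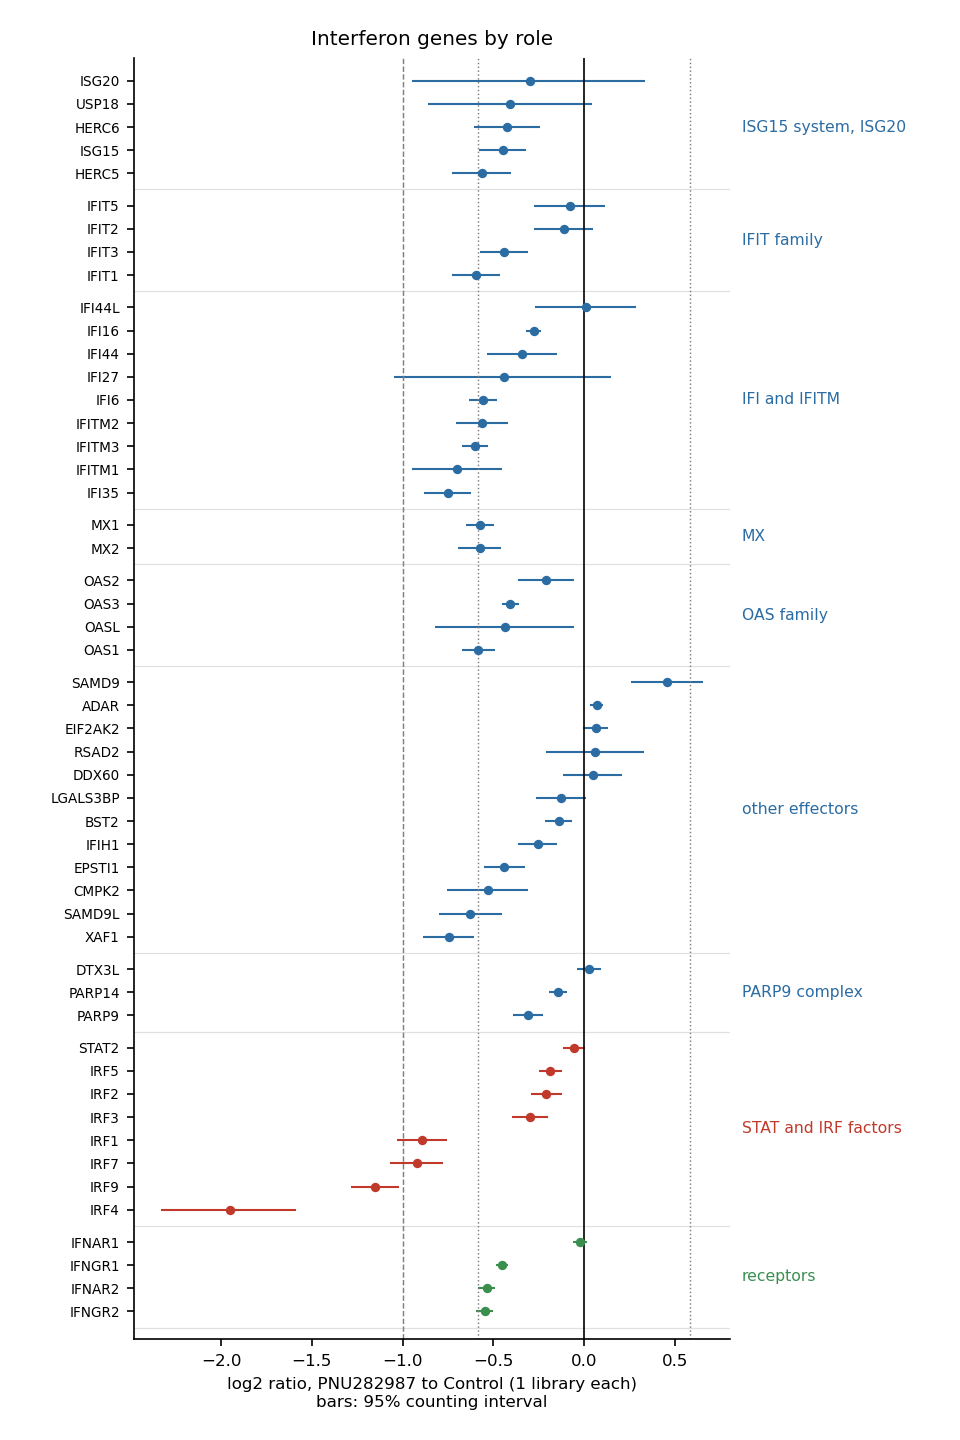
Log2 ratio of PNU282987 to Control for each of the 51 members, grouped by role, with 1 library per group and bars for the 95% counting interval. The dotted lines mark 1.5-fold and the dashed line 2-fold lower. IRF4 and IRF9 lie beyond the dashed line, and SAMD9 at 0.45 is the member farthest to the right.

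**Figure D2:**
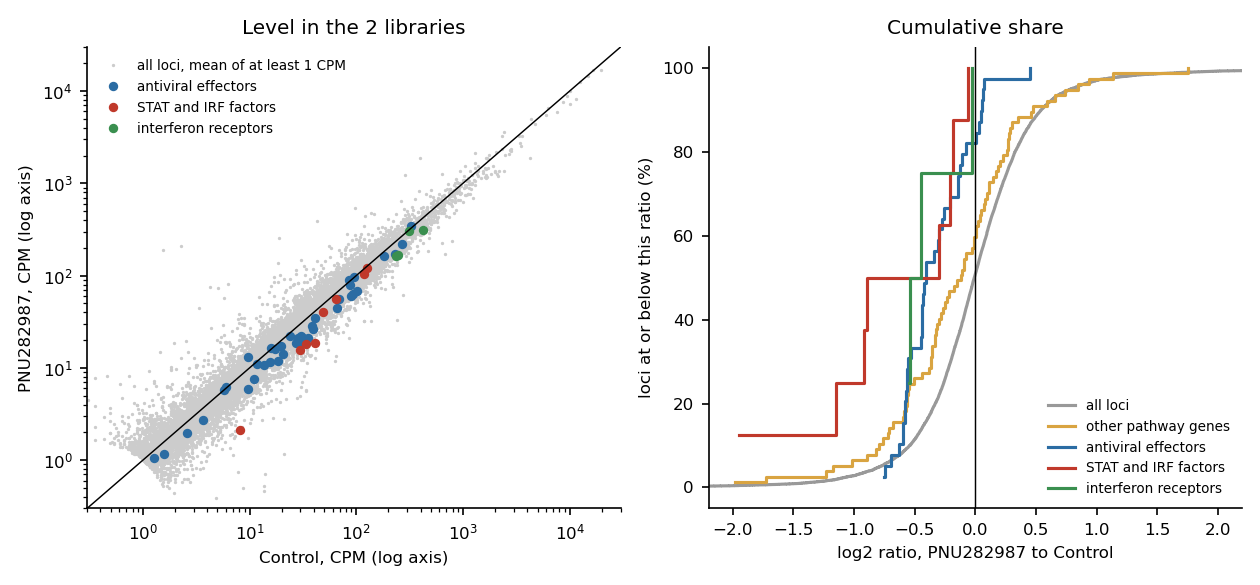
Left, CPM in PNU282987 against CPM in Control on log axes for all loci whose mean reached 1 CPM (grey) and the 51 members (coloured by class), with the line of equality. Right, the cumulative share of loci by log2 ratio for all loci, the other pathway genes and the 3 classes of members. The 3 coloured curves run to the left of the grey curve over most of their length, with class medians of -0.41, -0.59 and -0.49.

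The factors that drive these genes split into 2 sets. All 8 had a ratio under 1, beside 50.8% of all loci. The counting interval lay below equality for 7, beside 33.6% of all loci. IRF9, which gives the complex with STAT2 its DNA-binding specificity (chromosome 14, 24161265 to 24166565, RefSeq, GRCh38.p14), was read 1597 times in Control and 673 times in PNU282987. These counts equal 41.0 CPM (39.0 to 43.0, exact Poisson interval) in the first and 18.5 CPM (17.1 to 19.9) in the second. It was 2.22-fold lower in PNU282987, for a log2 ratio of -1.15 (-1.28 to -1.02). STAT2, its partner in the complex, had 125 and 121 CPM, for a log2 ratio of -0.06 with an interval that includes equality. The counting intervals of the libraries do not overlap for IRF9 and do overlap for STAT2. The difference between the log2 ratios of IRF9 and STAT2, which no scaling of the libraries can move, was -1.09 (-1.24 to -0.95).

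IRF4, a factor of lymphoid and dendritic cells and of alternatively activated macrophages (chromosome 6, 391752 to 411443), had the lowest ratio of all members. It had 318 and 77 reads, or 8.16 CPM (7.29 to 9.11) and 2.11 CPM (1.67 to 2.64), a 3.86-fold lower level and a log2 ratio of -1.95 (-2.33 to -1.59). Of the plasmacytoid dendritic cell markers, LILRA4 had 78 and 21 reads and GZMB 202 and 109 reads, while TCF4 had 51.7 and 76.1 CPM, IL3RA 1.77 and 1.81 CPM, and CLEC4C was at 0. The summed level of the 5 markers was 60.6 and 81.5 CPM, mostly TCF4, so that the sum follows this gene. The log2 ratios were 0.56 for TCF4, 0.03 for IL3RA, -0.79 for GZMB and -1.80 for LILRA4. The part of these markers in the value of IRF4 was not tested.

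IRF7, the main amplifier of type I interferon genes (chromosome 11, 612555 to 615950), had 1165 and 576 reads, or 29.9 and 15.8 CPM, for a log2 ratio of -0.92 (-1.07 to -0.77). IRF1, a target and effector of interferon gamma (chromosome 5, 132481609 to 132490773), had 1315 and 663 reads, or 33.7 and 18.2 CPM, for a log2 ratio of -0.89 (-1.03 to -0.76). Both ratios thus lay between 1.5-fold and 2-fold lower, with intervals that also include 2-fold. Without the GC and length trend IRF7 stood at -0.67 (-0.81 to -0.52), an interval that includes 1.5-fold.

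The remaining IRFs differed less. IRF3, which sits inactive in the cytoplasm until a nucleic acid sensor leads to its phosphorylation, had 49.1 and 40.1 CPM, for a log2 ratio of -0.30 (-0.39 to -0.20). IRF2, mostly a competitor of IRF1, had 65.0 and 56.3 CPM, for a log2 ratio of -0.21 (-0.29 to -0.12). IRF5, which acts downstream of Toll-like receptors in macrophages, had 119 and 104 CPM, for a log2 ratio of -0.18 (-0.25 to -0.12). Without a trend of the ratio over the GC content and length of transcripts, IRF3 stood at -0.09 and IRF5 at -0.05, and the 4 lowest factors stayed at or below -0.67. The log2 ratio of IRF7 differed from that of its homologue IRF3 by -0.62 (-0.80 to -0.45).

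Per kilobase of transcript, the order of the factors in Control ran from IRF5 (47.2 CPM per kilobase), STAT2 (39.6) and IRF3 (38.4) through IRF2 (28.2) and IRF9 (22.3) to IRF7 (15.1), IRF1 (9.43) and IRF4 (1.53). In PNU282987, IRF9 stood at 10.04 CPM per kilobase, IRF7 at 8.00, IRF1 at 5.08 and IRF4 at 0.40. The 4 factors with the lowest levels per kilobase in Control were thus the 4 with the lowest ratios. The median log2 ratio of the 8 factors, -0.59, lies in the gap between the 2 sets and moves with the choice of members: it was -0.30 over the 7 with a mean of at least 10 CPM, which leaves out IRF4, and -0.89 over those that overlap no other locus, which leaves out IRF3.

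**Figure D3:**
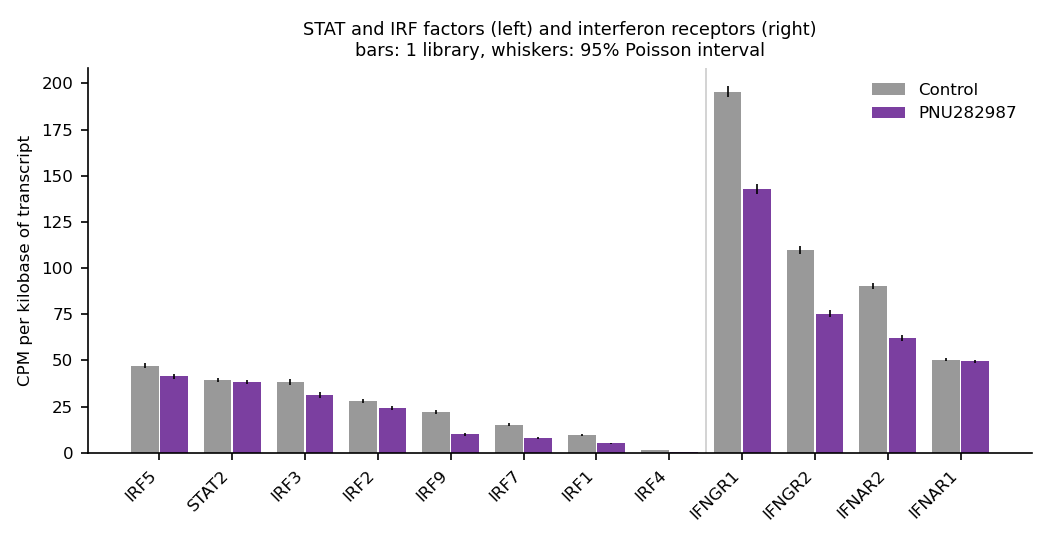
CPM per kilobase of transcript for the 8 STAT and IRF factors and the 4 receptor chains in Control (grey) and PNU282987 (purple), 1 library each, with whiskers for the 95% Poisson interval. The bars of IRF9 go from 22.3 to 10.04, and those of STAT2 from 39.6 to 38.1.

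Both receptors had one or both chains lower in the PNU282987 library. Of the type I receptor, the chain IFNAR2 (chromosome 21, 33229938 to 33265664), which binds the ligand with high affinity, had 9169 and 5916 reads, or 235 and 162 CPM, for a log2 ratio of -0.54 (-0.58 to -0.49). IFNAR1, the other chain, had 12050 and 11094 reads, or 309 and 304 CPM, for a log2 ratio of -0.02 (-0.06 to 0.01). Between these chains the log2 ratios differed by -0.51 (-0.57 to -0.45), or by -0.24 without the GC and length trend, where IFNAR1 itself stood at -0.32. Of the interferon gamma receptor, the ligand-binding chain IFNGR1 had 427 and 312 CPM, for a log2 ratio of -0.45 (-0.49 to -0.42). IFNGR2, the signalling chain, had 244 and 167 CPM, for a log2 ratio of -0.55 (-0.60 to -0.50). No chain passed the 1.5-fold rule, and IFNGR1 had the highest level per kilobase of all members in both libraries, at 195 and 143 CPM per kilobase.

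Among the 39 antiviral effectors, 32 (82.1%) had a ratio under 1, beside 50.8% of all loci. By the 1.5-fold rule 6 (15.4%) were lower, beside 8.66% of all loci: IFI35, XAF1, IFITM1, SAMD9L, IFITM3 and IFIT1. The median log2 ratio of the 39 was -0.41, and it was also -0.41 over those that overlap no other locus. With the reads of overlapping loci added it was -0.30. That setting gives the IFIT genes the ratio of LIPA, a far more abundant gene that overlaps them, and gives overlapping members nearly the same value. Between effectors the ratios ranged from -0.75 to 0.45 on the log2 scale.

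ISG15, a ubiquitin-like protein attached to newly made proteins, had 1172 and 803 reads, or 30.1 and 22.0 CPM, for a log2 ratio of -0.45 (-0.58 to -0.32). HERC5, the human ligase that attaches it, had 20.8 and 14.1 CPM, for a log2 ratio of -0.56 (-0.73 to -0.40), and its relative HERC6 had 15.6 and 11.6 CPM. USP18, the protease that removes ISG15 and also restrains IFNAR2, had 102 and 72 reads, with an interval of -0.86 to 0.04 that includes equality. The exonuclease ISG20 had 50 and 38 reads, too few to tell the libraries apart. ISG15 stood at -0.21 without the GC and length trend. So all 5 had a ratio under 1, beside 50.8% of all loci. The interval lay below equality for ISG15, HERC5 and HERC6, beside 33.6% of all loci.

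The IFIT proteins bind foreign RNA and block its translation. IFIT1 (chromosome 10, 89392623 to 89406487) had 1227 and 761 reads, or 31.5 and 20.9 CPM, for a log2 ratio of -0.59 (-0.73 to -0.46). IFIT3, which stabilises IFIT1, had 28.6 and 21.1 CPM, for a log2 ratio of -0.44 (-0.58 to -0.31). The other two were closer to equality: IFIT2 had 17.1 and 15.9 CPM and IFIT5 11.7 and 11.1 CPM, with intervals that include it, although without the GC and length trend they stood at -0.29 and -0.35. All 4 lie within the span that RefSeq gives to LIPA, a lysosomal lipase gene with 96310 and 74652 reads and a log2 ratio of -0.27. With the reads of LIPA added, the log2 ratio of IFIT1 was -0.27, and it was -0.27 for each of the other IFIT genes too. LIPA has so many more reads that such a sum returns the ratio of LIPA, whatever the IFIT genes do. The sum therefore cannot show whether the 1.5-fold call of IFIT1 holds. How reads were divided among them is not known.

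Of the 9 IFI and IFITM genes, 8 had a ratio under 1, beside 50.8% of all loci, and the median of the 9 was -0.55. The IFITM proteins, which sit in endosomal and plasma membranes and block virus entry, were lower together: IFITM3 had 102 and 67.5 CPM (3984 and 2459 reads), IFITM2 27.1 and 18.4 CPM, and IFITM1 9.57 and 5.90 CPM. Their log2 ratios were -0.60, -0.56 and -0.70. These genes are close copies that can share reads, so the division between them is uncertain. IFI35, a leucine zipper protein, had the lowest ratio of the group, at 35.4 and 21.0 CPM, for a log2 ratio of -0.75 (-0.88 to -0.62). Without the GC and length trend, IFI35 stood at -0.56, IFITM1 at -0.55 and IFITM3 at -0.41, each then within 1.5-fold.

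IFI6, a small mitochondrial and reticulum membrane protein, had 89.3 and 60.8 CPM, for a log2 ratio of -0.55 (-0.63 to -0.48). IFI16, a nuclear DNA sensor, had 267 and 220 CPM, for a log2 ratio of -0.28 (-0.32 to -0.24). IFI44 had 13.6 and 10.7 CPM, for a log2 ratio of -0.34, whereas its neighbour IFI44L had 5.70 and 5.73 CPM, for a log2 ratio of 0.0091 that became -0.36 without the GC and length trend. IFI27, among the most inducible genes of the type I response in blood cells, had 61 and 42 reads, with an interval of -1.04 to 0.15 that includes equality.

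Both MX GTPases, which trap viral nucleocapsids, were lower to the same degree. MX1 had 93.3 and 62.7 CPM (3635 and 2284 reads) and MX2 39.1 and 26.2 CPM (1523 and 956 reads). The log2 ratios were -0.57 and -0.58, and the difference between them was 0.0014 (-0.14 to 0.14). MX1 made up 71.95% of the reads per kilobase of the pair in Control and 71.97% in PNU282987.

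The OAS enzymes make the oligoadenylates that activate RNase L. All 4 had intervals below equality, beside 33.6% of all loci. OAS1 had 66.5 and 44.4 CPM, for a log2 ratio of -0.58 (-0.67 to -0.49), just short of 1.5-fold. OAS3 had 229 and 173 CPM, for a log2 ratio of -0.41 (-0.45 to -0.36), and OAS2 had 19.8 and 17.1 CPM, for a log2 ratio of -0.21 (-0.37 to -0.06). OASL, which lacks the enzymatic activity, had 143 and 99 reads, for a log2 ratio of -0.43 (-0.82 to -0.05).

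The 12 other effectors were the most divided, with 7 ratios under 1 (58.3%, beside 50.8% of all loci), 5 above and a median of -0.13. XAF1, a partner of the apoptosis inhibitor XIAP, had 1170 and 653 reads, or 30.0 and 17.9 CPM, for a log2 ratio of -0.75 (-0.89 to -0.61). EPSTI1 had 38.8 and 28.6 CPM, for a log2 ratio of -0.44, and the RNA sensor IFIH1 (MDA5) 41.0 and 34.3 CPM, for a log2 ratio of -0.26. Before removal of the GC and length trend, ADAR, EIF2AK2 and DDX60 did not stand lower, whereas each did after it. ADAR, the RNA-editing enzyme, had 325 and 341 CPM, for a log2 ratio of 0.07 (0.03 to 0.11). With the GC and length trend removed ADAR stood at -0.10 (-0.13 to -0.06). EIF2AK2, the kinase PKR, had 85.4 and 89.3 CPM, and the helicase-like DDX60 had 16.0 and 16.5 CPM, both with intervals that include equality. Without that trend EIF2AK2 stood at -0.11 (-0.18 to -0.04) and DDX60 at -0.31 (-0.47 to -0.14). IFIH1 then stood at -0.41. BST2 (tetherin), which holds budding virions at the cell surface, had 87.8 and 79.7 CPM, for a log2 ratio of -0.14 (-0.21 to -0.07), or 0.042 with that trend removed. LGALS3BP, a secreted galectin ligand, had 24.0 and 22.0 CPM with an interval that includes equality.

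PARP9, DTX3L and PARP14 encode an ADP-ribosyltransferase that acts with an E3 ligase, and a larger relative of the former. PARP9 had 68.2 and 55.1 CPM, for a log2 ratio of -0.31 (-0.39 to -0.22), PARP14 had 181 and 163 CPM, for a log2 ratio of -0.15 (-0.20 to -0.10), and DTX3L had 95.2 and 97.1 CPM, for a log2 ratio of 0.03 (-0.04 to 0.10). None passed the 1.5-fold rule. Without the GC and length trend PARP9 stood at -0.43, PARP14 at -0.47 and DTX3L at -0.22.

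Many members sit side by side in the genome, and neighbours did not always share a ratio. There were 15 pairs of adjacent members within 100 kb of each other. The widest difference was between SAMD9 and SAMD9L (chromosome 7, 93099518 to 93117979 and 93130056 to 93148385), paralogous restriction factors of poxviruses whose spans lie 12076 bases apart. SAMD9 had 376 and 482 reads, or 9.65 and 13.2 CPM, for a log2 ratio of 0.45 (0.26 to 0.65). SAMD9L had 721 and 437 reads, or 18.5 and 12.0 CPM, for a log2 ratio of -0.63 (-0.80 to -0.45). One gene of the pair was thus higher and the other lower, and the difference in log2 ratio was -1.08 (-1.34 to -0.82). Their transcripts are alike in length (6803 and 7134 bases) and GC content (36.0% and 38.5%), and with the trend over both removed the difference was -1.04, with SAMD9 at 0.01 and SAMD9L at -1.03, then past 2-fold.

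CMPK2, a mitochondrial nucleotide kinase, and RSAD2 (viperin), which makes a chain-terminating nucleotide, lie head to head and overlap by 751 bases. CMPK2 had 10.9 and 7.57 CPM and RSAD2 had 5.98 and 6.23 CPM, a difference in log2 ratio of 0.59 (0.25 to 0.93), or 0.35 with the trend removed. PARP9 and DTX3L also lie head to head, overlap by 447 bases and share the ISRE-like letters shown above, and their log2 ratios differed by 0.34 (0.23 to 0.44), or by 0.22 with the trend removed. Whether strand was used in counting is not given in the sources used here, so reads in such overlaps may have been assigned to either gene.

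At several other clusters the neighbours could not be told apart by their counts. The difference in log2 ratio included 0 between IFITM2 and IFITM1 (-0.14, -0.42 to 0.14), IFITM1 and IFITM3 (0.10, -0.15 to 0.35), HERC6 and HERC5 (-0.14, -0.38 to 0.10), IFIT3 and IFIT1 (-0.15, -0.34 to 0.03), and MX2 and MX1. For IFIT3 and IFIT1 it widened to -0.24 with the trend removed, where an interval of the same width excludes 0. It excluded 0 between IFIT1 and IFIT5 (0.51, 0.28 to 0.75), IFIT2 and IFIT3 (-0.33, -0.54 to -0.12), OAS1 and OAS3 (0.18, 0.08 to 0.28), and OAS3 and OAS2 (0.19, 0.04 to 0.35). For OAS1 and OAS3 it was 0.053 with the trend removed, where an interval of the same width includes 0. Between IFI44L and IFI44 it was -0.35 (-0.68 to -0.02), or -0.015 with the trend removed, where such an interval also includes 0. On chromosome 21, where IFNAR2, IFNAR1 and IFNGR2 follow one another, the middle gene had the ratio nearest to equality. IFNGR2 differed from IFNAR1 by -0.53 (-0.58 to -0.47), or by -0.14 with the trend removed.

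**Figure D4:**
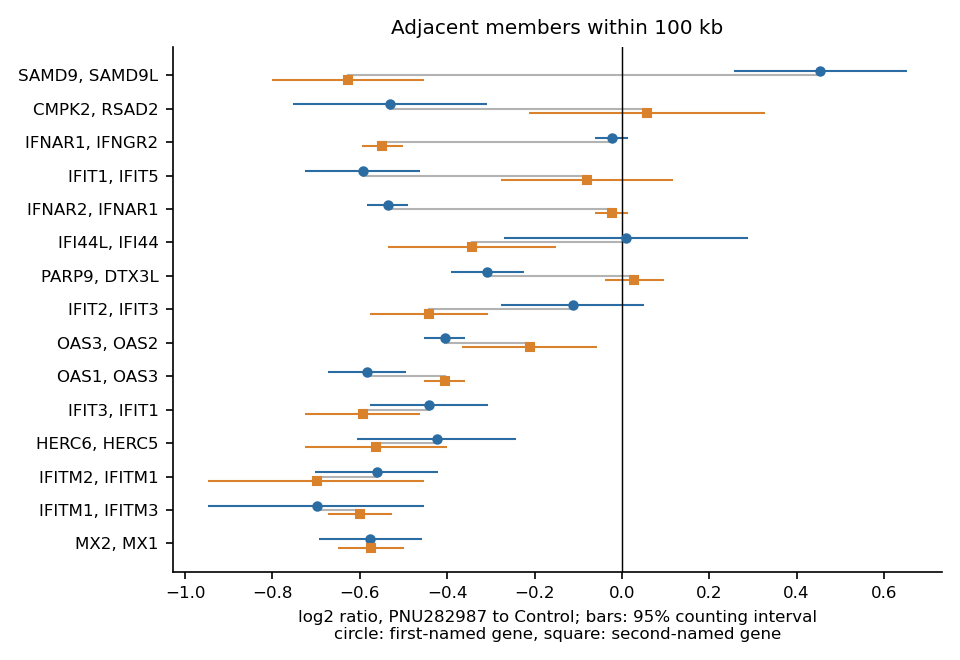
Log2 ratio of PNU282987 to Control for the 15 pairs of adjacent members within 100 kb, ordered by the size of the difference, with 1 library per group and bars for the 95% counting interval. SAMD9 (0.45) and SAMD9L (-0.63) lie on opposite sides of equality, and MX2 and MX1 coincide.

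The ratios were also set beside the promoter letters, as a description only. The 25 members with such a match had a median log2 ratio of -0.31, with 19 ratios under 1, and the 16 without one a median of -0.54, with 15 under 1. With the stricter motif the order was the opposite, a median of -0.44 for the 17 members with it and -0.35 for the 24 without. The 11 members with a GAS-like match had a median of -0.57, with 10 under 1. They ranged from -1.15 for IRF9 to 0.05 for DDX60. The 30 without one had a median of -0.33, with 24 under 1. Among loci that are no members, the median was -0.0056 for the 413 with an ISRE-like match and -0.0043 for the 10356 without. For a GAS-like match it was 0.026 (938 loci) and -0.0079 (9831 loci). The share of these loci with a ratio under 1 was 50.6% with an ISRE-like match and 50.5% without. For a GAS-like match that share was 46.9% with it and 50.8% without.

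Ligands of the pathway were scarcely detected. Of 11 interferon genes, 10 (IFNA1, IFNA2, IFNB1, IFNK, IFNW1, IFNG, IFNL1, IFNL2, IFNL3 and IFNL4) had 0 reads in both libraries. IFNE, an interferon of epithelia, had 2 and 8 reads and overlaps a long noncoding locus, with an interval that includes equality. At this depth each gene at 0 may have held up to 3 reads, a one-sided limit, or 0.077 and 0.0823 CPM.

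The other genes of the pathway were more mixed than the members. Of 96 found in the table, 77 had a mean of at least 1 CPM. Their median log2 ratio was -0.12, or -0.20 without the GC and length trend. Of the 77, 46 (59.7%) had a ratio under 1, beside 50.8% of all loci. By the 1.5-fold rule 14 (18.2%) were lower and 7 (9.09%) higher, beside 8.66% and 8.77% of all loci. Among the kinases, JAK1 had 165 and 182 CPM, TYK2 146 and 117 CPM, and JAK2 37.3 and 56.3 CPM, for a log2 ratio of 0.59 (0.50 to 0.69) that became 0.28 with the GC and length trend removed. IRF8, a lineage factor of macrophages and microglia, had 157 and 135 CPM, for a log2 ratio of -0.22 (-0.27 to -0.16).

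At 2-fold, 5 of the 77 (6.49%) were lower, beside 2.81% of all loci, and 2 were higher, beside 2.96%, a share no larger than the background. The adaptor of cytosolic DNA sensing STING1 had 20.7 and 8.80 CPM, for a log2 ratio of -1.23 (-1.42 to -1.04), while the sensor upstream of it, CGAS, had 15.1 CPM in both libraries. The endosomal RNA receptor TLR8 had 58.3 and 28.8 CPM, for a log2 ratio of -1.02 (-1.13 to -0.91). TNFSF10, the death ligand TRAIL, had 393 and 93 reads, for a log2 ratio of -1.98 (-2.33 to -1.65).

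The immunoproteasome subunit PSMB9 had 187 and 53 reads, for a log2 ratio of -1.72 (-2.19 to -1.28), and the tryptophan-degrading enzyme IDO1 had 58 and 24 reads. On the higher side, the cytidine deaminase APOBEC3A had 307 and 630 reads, for a log2 ratio of 1.13 (0.93 to 1.33), and the guanosine monophosphate reductase GMPR had 44 and 139 reads, for a log2 ratio of 1.76 (1.26 to 2.28).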

How the data were processed

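The values are the deposited read counts, whole and unnormalized, per the file headers. HISAT2 2.1.0 and StringTie 2.1.3b are among the tools that the submitters' processing notes name, with GRCh38 as the build. The sources used here do not say how mates, shared reads or strand were counted. Libraries were grouped by title and library name. CPM used totals scaled with TMM factors (edgeR 4.0.16, R 4.3.3; 0.991 for Control, 1.01 for PNU282987). Ratios have Clopper-Pearson and levels Poisson 95% intervals, and differences between genes Woolf intervals, all for counting error only. With 1 library per group there is no test across samples.

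Transcript lengths and GC content are from GENCODE 29, positions and promoters from RefSeq (GRCh38.p14). The GC and length trend was a robust quadratic fit (statsmodels 0.14.6) over 91.4% of the loci compared. On counts simulated for this comparison over 14269 loci with counting error alone, the 1.5-fold rule called 23 of 50 loci simulated at a 1.5-fold change, 48 of 50 simulated at 2-fold and 50 of 14071 left unchanged. The 2-fold rule called 23 of 50 simulated at 2-fold. Members and lists were chosen with earlier results of these data known. All members and every pathway gene past the 2-fold rule are named, with the ligands and kinases; values of some genes are left out here. Alternatives covered scaling (size factors of DESeq2 1.42.0, upper quartile, library totals), filters, thinning, halved counts, overlapping loci and that trend.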

Additional observations from a re-analysis of the deposited data

How the results depend on the processing

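The median of the members ranged from -0.43 to -0.34 and that of the effectors from -0.41 to -0.30 over 10 alternatives each, and members lower by 1.5-fold numbered 8 to 11. The values of -0.34 and -0.30 came from adding the reads of overlapping loci, which for the IFIT genes returns the ratio of LIPA. Scaling by library totals put IFIT1 (-0.57) and IFITM3 (-0.57) within 1.5-fold, and upper quartile or DESeq2 scaling put OAS1 (-0.59) past it. With the GC and length trend removed, ADAR went from 0.07 to -0.10 and BST2 from -0.14 to 0.042, the factor median was -0.46, HERC5 (-0.70) and MX2 (-0.60) passed 1.5-fold, 4 pathway genes were 1.5-fold higher, and 790 loci were 1.5-fold higher and 939 lower, against 1252 and 1235. With a mean of at least 10 CPM the factor median was -0.30, 1 member was 2-fold lower, 2 pathway genes were 2-fold and 7 were 1.5-fold lower, 1 was 2-fold higher, and the loci numbered 141 lower and 181 higher at 2-fold and 541 and 679 at 1.5-fold. With no CPM filter 879 loci were lower and 950 higher at 2-fold. Over genes that overlap no other locus the medians were -0.89 (factors) and -0.45 (receptors, which is IFNGR1 alone), and the pathway counts were 3 (2-fold lower), 9 (1.5-fold lower) and 4 (1.5-fold higher). Halved counts, included in the 10 alternatives, widened intervals but by construction could move no ratio and no median. The causes were not tested beyond each alternative's own construction. Leaving out a library was not possible. No paired analysis was possible because a single library stands on each side and no test was run.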
